A study of Mus musculus with 10 samples.

Results

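General astrocyte identity genes are the enzymes, matrix proteins, transporters, metallothioneins and signalling proteins whose transcripts are enriched in astrocytes over the other cells of the cortex. A list of 36 such genes, matched by symbol, was followed in RNA-seq of mouse cortical tissue. All 36 were among the 12575 genes of the deposited table and all 36 passed the filter on low values (over 1 CPM, read counts scaled to library size, in 4 or more libraries), which 12573 genes did. The libraries came from 5 BMAL1 aKO mice (Aldh1l1-CreERT2;Bmal1 fl/fl, Cre positive) and 5 Cre- mice (Bmal1 fl/fl without Cre), on a C57BL/6 background and 4 months old by the labels (the study's text gives a later age). Both groups carried the floxed Bmal1 alleles and, per the study's methods, both received tamoxifen and were littermates of both sexes. Cre was driven by the promoter of Aldh1l1, which is itself one of the 36 genes, so the deletion of Bmal1 was aimed at astrocytes while neurons and other cells of the tissue kept the gene. Mice are numbered below by their replicate numbers.

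Astrocytes take up neurotransmitters, store glycogen, supply lipids and secrete much of the brain's extracellular matrix. They are recognised by enzymes of folate and amino acid metabolism such as ALDH1L1 and by the growth factor receptor FGFR3. Their secreted proteins include lecticans of the matrix, which are not made by astrocytes alone. BMAL1 is a transcription factor of the circadian clock that pairs with CLOCK and binds E-box sequences in the promoters of its targets. Reactive astrocytes raise genes such as Gfap, which is not on this list, though the list was not screened for genes that reactive astrocytes also raise. The comparison addresses whether the identity genes differed in level between BMAL1 aKO and Cre- cortex. In bulk tissue, fewer cells of a type and less RNA per cell cannot be told apart.

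The libraries held 23127338 to 47964460 reads in BMAL1 aKO and 21844770 to 48295715 in Cre- cortex. The spread between mice of a group was well above counting error (chi-square over its degrees of freedom, 12.9 to 447 for pairs of libraries). Arntl, the gene symbol of Bmal1, was at 35.7, 33.0, 38.8, 31.1 and 33.9 CPM in the BMAL1 aKO mice 1 to 5, against 34.0, 31.9, 32.2, 37.1 and 35.8 CPM in the Cre- mice 1 to 5, a log2 ratio of 0.01 ± 0.07 (SE, limma adjusted p = 0.932). Reads over the full gene in whole cortex, where most cells keep Bmal1, are no check of the labels. Xist was at 986 to 1089 CPM in 2 BMAL1 aKO and 2 Cre- libraries and did not exceed 1.42 CPM in the remaining 6, so both sexes were in both groups. Cre- replicate 3 stood apart from the other libraries. Its mitochondrial-encoded transcripts summed to 61929 CPM, against 92922 to 198813 CPM in the other 9, and its striatal marker genes (9 genes) to 2146 CPM, against 509 to 1293 CPM. The study's text counts 4 BMAL1 aKO mice while the labels list 5, so all 10 libraries were used and each was left out in turn.

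Per kilobase of exon, with all annotated exons of a gene merged, Cpe had the highest level of the 36 at 486 CPM per kb in BMAL1 aKO and 476 in Cre- cortex. Cpe trims propeptides into active neuropeptides and is also expressed by neurons. The metallothioneins Mt1 and Mt2 followed at 203 and 193 CPM per kb in BMAL1 aKO, against 175 and 182 in Cre- cortex. The merged exons of Mt1 covered its whole annotated gene, 1246 bases. Its level per kilobase may thus be understated, and the order of the genes is approximate. Ndrg2 was at 182 and 177 CPM per kb, Gpm6b at 169 and 157, and Mt3 at 154 and 132, in BMAL1 aKO and Cre- cortex. The lowest were Phkg1, at 1.61 and 1.85 CPM per kb, and Gli3, at 2.04 and 1.89. Aldh1l1, the gene whose promoter drove Cre, was at 8.43 CPM per kb in BMAL1 aKO and 9.74 in Cre- cortex.

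The E-box CACGTG, searched on both strands as the sequence that BMAL1 and CLOCK bind best, was present in the 250 bases before the start in 2 of the 33 genes for which RefSeq (GRCm38.p6) gave a promoter (all but Cpe, Scrg1 and Tst), or 6.06%, and in 10.1% of 9725 genes tested that matched. The promoters of the 2 genes, Cbs (chr17:31637206-31637455, minus strand) and Ppp1r3c (chr19:36736605-36736854, minus strand), are shown with the E-box in capitals because BMAL1 is the gene deleted here.
Cbs: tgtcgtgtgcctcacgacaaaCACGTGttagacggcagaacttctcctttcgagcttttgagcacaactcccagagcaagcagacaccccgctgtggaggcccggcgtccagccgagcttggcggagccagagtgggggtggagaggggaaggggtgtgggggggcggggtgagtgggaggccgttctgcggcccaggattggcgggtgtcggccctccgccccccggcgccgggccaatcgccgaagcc
Ppp1r3c: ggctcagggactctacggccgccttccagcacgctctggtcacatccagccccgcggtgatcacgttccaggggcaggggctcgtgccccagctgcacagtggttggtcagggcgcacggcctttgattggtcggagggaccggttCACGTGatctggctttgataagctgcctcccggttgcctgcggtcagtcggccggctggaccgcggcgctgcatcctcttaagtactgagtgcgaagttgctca
The metallothionein genes lie side by side on chromosome 8 on the plus strand, and their promoters are shown because Mt1 and Mt2 were among the 4 highest log2 ratios of the list. Capitals mark the core of the metal response element, searched as TGCACNC or TGCGCNC on both strands, which 10 of the 33 genes held, or 30.3%, against 35.6% of the 9725 genes tested. Mt1 (chr8:94178839-94179088) held 1 match, Mt2 (chr8:94172368-94172617) held 3 and Mt3 (chr8:94152357-94152606) held none.
Mt1: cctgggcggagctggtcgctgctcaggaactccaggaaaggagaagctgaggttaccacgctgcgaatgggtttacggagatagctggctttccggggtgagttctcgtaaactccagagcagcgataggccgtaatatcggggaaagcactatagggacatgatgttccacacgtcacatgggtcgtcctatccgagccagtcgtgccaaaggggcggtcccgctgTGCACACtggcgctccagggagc
Mt2: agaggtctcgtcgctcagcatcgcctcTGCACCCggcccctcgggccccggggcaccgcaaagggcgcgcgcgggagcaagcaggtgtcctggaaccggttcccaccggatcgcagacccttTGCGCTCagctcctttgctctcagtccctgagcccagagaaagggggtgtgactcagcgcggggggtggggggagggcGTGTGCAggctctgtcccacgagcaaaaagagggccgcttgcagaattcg
Mt3: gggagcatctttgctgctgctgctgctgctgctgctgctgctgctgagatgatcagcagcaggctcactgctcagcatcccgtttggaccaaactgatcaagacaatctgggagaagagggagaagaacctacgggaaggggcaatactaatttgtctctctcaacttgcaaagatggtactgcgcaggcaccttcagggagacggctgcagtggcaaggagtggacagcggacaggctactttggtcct
A match is a description of the letters in this window before the RefSeq start. Bases after that start or further upstream were not searched, so the counts do not compare the full promoters of the metallothionein genes.

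In BMAL1 aKO cortex 1 of the 36 genes rose and none fell (limma with sample quality weights per library, Benjamini-Hochberg adjusted p at or below 0.1 over 12573 genes), while 36 genes of the whole table rose, or 0.286%, and 6 fell, or 0.0477%. The gene that rose was Pla2g7. At an unadjusted p below 0.05, 12 of the 36 were higher and none was lower, against 6.82% of all genes higher and 10.0% lower. The log2 ratio of BMAL1 aKO over Cre- was above 0 for 27 of the 36 and below 0 for 9, against 38.4% and 61.6% of all genes, and its median was 0.11 over the 36 and -0.04 over all genes. TMM scaling, which the study's methods name and the deposited CPM do not hold, moved the median of all genes to 0.00 and that of the 36 genes to 0.15, and 4 of the 36 then rose and none fell (Pla2g7, Tril, Ttyh1 and Luzp2), against 0.477% of all genes higher and 0.0636% lower. With that scaling 32 of the 36 were above 0 and 4 below, against 49.3% and 50.7% of all genes.

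The log2 ratios were small and the count depended on the fit. The ratios ran from -0.22 for Tst to 0.44 for Pla2g7 after 0.5 was added to each CPM before taking logs, so that changes of low genes come out smaller. Without sample quality weights none of the 36 passed in limma, against 0.0318% of all genes higher (5 were higher and none lower at an unadjusted p below 0.05, against 2.51% of all genes higher and 2.27% lower), and 22 of the 36 were above 0 and 14 below, against 37.0% and 63.0% of all genes. With weights, in voomWithQualityWeights after TMM scaling, none of the 36 passed either, against 0.215% of all genes higher and 0.0159% lower. Cre- replicate 1 had a weight of 7.19, more than the other 4 Cre- libraries together, and Cre- replicate 3 the lowest at 0.181. Leaving out BMAL1 aKO replicate 3 raised the count to 6, with 2.70% of all genes higher and 4.02% lower, and leaving out BMAL1 aKO replicate 1, 2, 4 or 5 or Cre- replicate 1, 3, 4 or 5 lowered it to 0. The shares of all genes in the fits with a count of 0 were 0.175%, 0.342%, 0.0716% and 0.223% higher and 0.00795%, 0.0716%, 0.00795% and 0.0159% lower without BMAL1 aKO replicate 1, 2, 4 and 5. They were 0.00795%, 0.143%, 0.119% and 0.0398% higher without Cre- replicate 1, 3, 4 and 5, and 0.00795% lower without Cre- replicate 3. Without Cre- replicate 2 the count stayed at 1, with 0.326% of all genes higher and 0.103% lower.

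**Figure D1:**
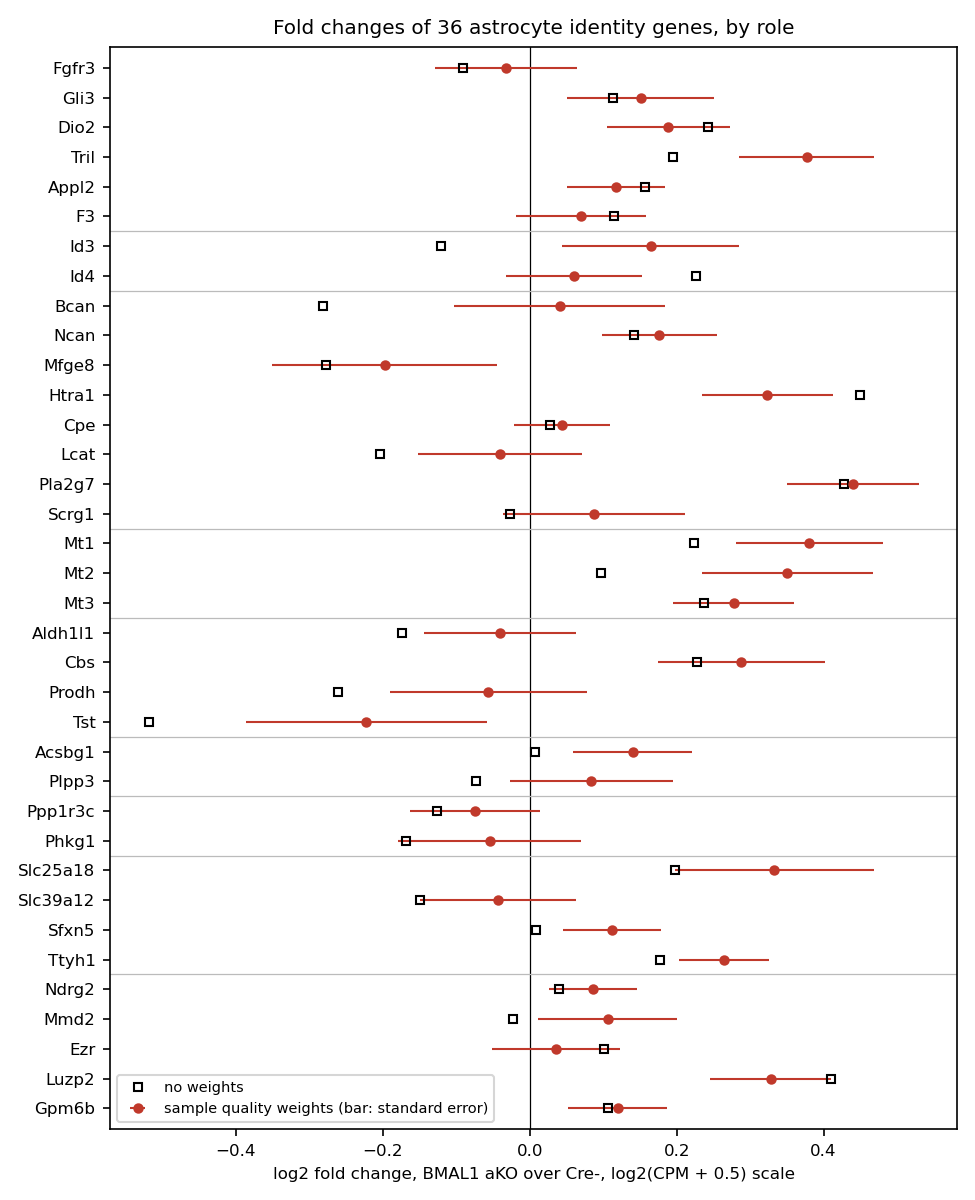
Log2 ratio, BMAL1 aKO over Cre-, of the 36 genes, in rows grouped by role, from limma with sample quality weights (red circles, bars are the standard error) and without weights (open squares), n = 5 libraries per group. With weights the values run from -0.22 for Tst to 0.44 for Pla2g7 and 27 of 36 lie above 0.

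Among the matrix and secreted proteins 1 of 8 genes rose and none fell. Pla2g7 (ENSMUSG00000023913, chr17:43568098-43612201) encodes a secreted phospholipase that inactivates platelet-activating factor. It was at 158, 159, 131, 188 and 145 CPM in the BMAL1 aKO mice 1 to 5, against 109, 126, 99.1, 119 and 124 CPM in the Cre- mice 1 to 5. Every BMAL1 aKO library was above every Cre- library, as for 2 of the 36 genes and, in this direction, 0.620% of all genes. The means were 156 ± 21.2 CPM in BMAL1 aKO and 115 ± 11.3 CPM in Cre- cortex (SD, n = 5 each), a log2 ratio of 0.44 ± 0.09 (SE, limma adjusted p = 0.0918), and the two-sided exact permutation test of the log2 means gave p = 0.00794, the smallest that 5 against 5 allows. The adjusted p ran from 0.102 to 0.925 without BMAL1 aKO replicate 1, 2, 4 or 5 or Cre- replicate 1, 3, 4 or 5, and was 0.803 without weights, while the log2 ratio stayed between 0.33 and 0.54 over the 10 libraries left out in turn.

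The other gene whose groups did not overlap was Htra1 (ENSMUSG00000006205, chr7:130936111-130985660), a secreted serine protease of the extracellular matrix. It was at 177, 161, 137, 139 and 121 CPM in the BMAL1 aKO mice 1 to 5, against 117, 88.2, 119, 109 and 103 CPM in the Cre- mice 1 to 5. BMAL1 aKO replicates 1 and 2 were highest, and the lowest BMAL1 aKO library was just above the highest Cre- library. The fit gave a log2 ratio of 0.32 ± 0.09 (SE, limma adjusted p = 0.175), which did not pass, and the exact permutation test p = 0.00794. Ncan, the lectican neurocan of the perisynaptic matrix, was at 291 to 387 CPM in BMAL1 aKO and 249.7 to 394 CPM in Cre- cortex, with a log2 ratio of 0.18 (limma adjusted p = 0.281).

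Bcan, the lectican brevican, was at 118, 157, 114, 103 and 106 CPM in the BMAL1 aKO mice 1 to 5, against 108, 96.3, 303, 183 and 107 CPM in the Cre- mice 1 to 5. Cre- replicates 3 and 4 were above every BMAL1 aKO library, and the other 3 Cre- libraries lay within or below the BMAL1 aKO range. The weighted log2 ratio was 0.04 (limma adjusted p = 0.904) and the plain difference of means -0.28. Mfge8, a secreted bridging protein that tags cells for phagocytosis, was at 75.99, 115, 66.2, 68.3 and 58.7 CPM in the BMAL1 aKO mice 1 to 5, against 83.6, 54.6, 186, 98.5 and 73.0 CPM in the Cre- mice 1 to 5, a log2 ratio of -0.20 ± 0.15 (SE, limma adjusted p = 0.513), and Cre- replicate 3 was again the highest. Cpe, Lcat, which esterifies cholesterol on lipoproteins, and Scrg1, a small secreted protein, had log2 ratios of 0.04, -0.04 and 0.09 (limma adjusted p = 0.752, 0.875 and 0.735).

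Metallothioneins are small cysteine-rich proteins that bind zinc and copper, and all 3 had log2 ratios above 0 without passing the test. Mt1 and Mt2 are close paralogs, so the split of reads between them is uncertain. Mt1 (ENSMUSG00000031765, chr8:94179082-94180327) was at 221, 232, 229, 278 and 305 CPM in the BMAL1 aKO mice 1 to 5, against 189, 278, 187, 243 and 193 CPM in the Cre- mice 1 to 5, a log2 ratio of 0.38 ± 0.10 (SE, limma adjusted p = 0.159). Mt2 (ENSMUSG00000031762, chr8:94172664-94173568) was at 89.5, 107, 108, 129.9 and 133 CPM in the BMAL1 aKO mice 1 to 5, against 85.2, 117, 96.6, 143 and 93.5 CPM in the Cre- mice 1 to 5, a log2 ratio of 0.35 ± 0.12 (SE, limma adjusted p = 0.188). In both genes BMAL1 aKO replicates 4 and 5 and Cre- replicates 2 and 4 were the high libraries of their groups, and the groups overlapped. Mt3 (ENSMUSG00000031760, chr8:94152607-94154146), the brain form, followed another order and was at 195, 171, 141, 165 and 149.6 CPM in the BMAL1 aKO mice 1 to 5, against 131, 122, 180.0, 149 and 119.7 CPM in the Cre- mice 1 to 5, a log2 ratio of 0.28 ± 0.08 (SE, limma adjusted p = 0.182). BMAL1 aKO replicate 1 and Cre- replicate 3 were highest for Mt3 in their groups, and were the lowest for Mt1 in theirs. The plain differences of the mean log2 values were 0.22, 0.10 and 0.24 for Mt1, Mt2 and Mt3 (exact permutation test, p = 0.198, 0.571 and 0.127). Without BMAL1 aKO replicate 3, Mt1 and Mt3 passed (limma adjusted p = 0.0588 and 0.0688). Of 13 measured genes of metallothionein control and zinc transport none passed in limma, with a median log2 ratio of -0.06. At an unadjusted p below 0.05, 1 of the 13 was higher and 4 were lower, against 6.82% and 10.0% of all genes. Among them Mtf1, the transcription factor that binds the metal response element, had a log2 ratio of -0.21 (limma adjusted p = 0.200).

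**Figure D2:**
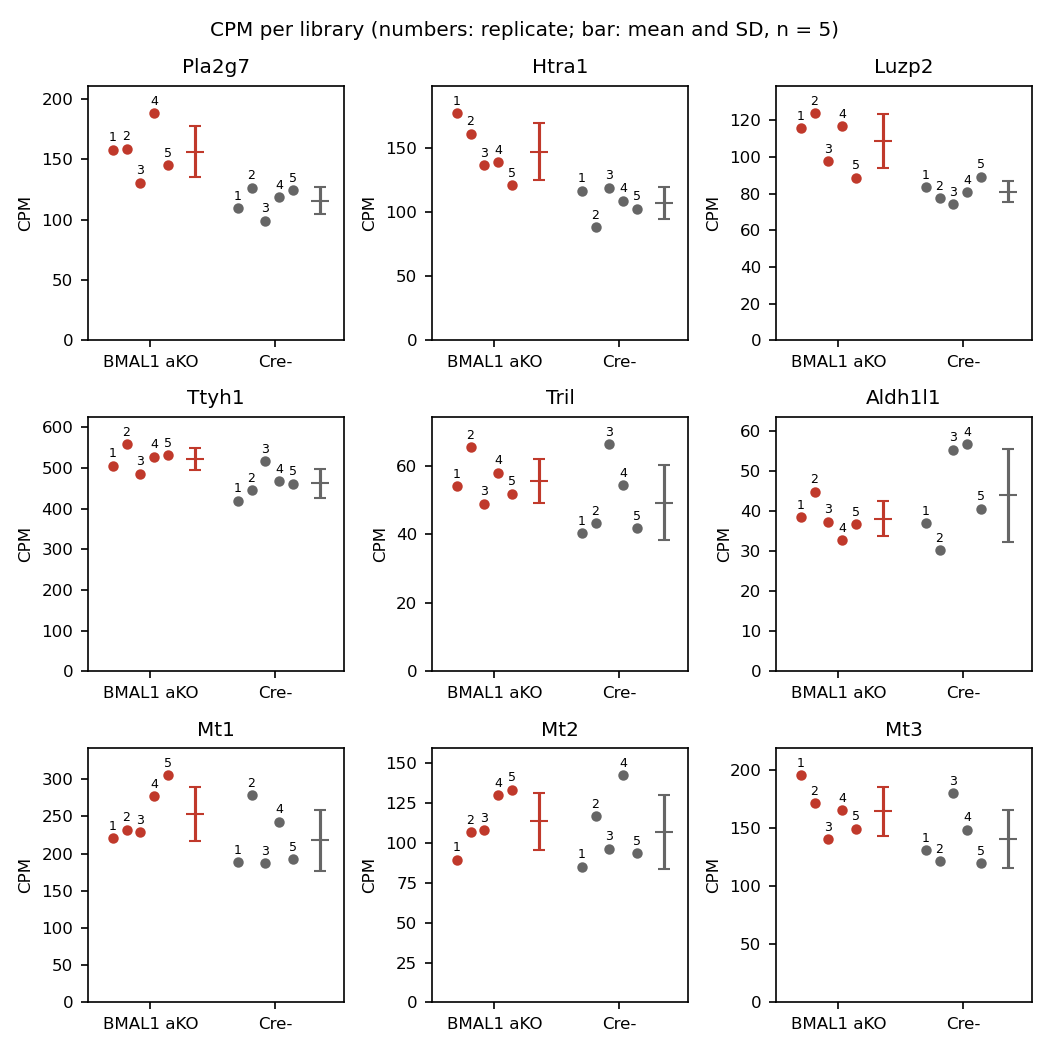
CPM of 9 of the genes in each library of BMAL1 aKO (red) and Cre- (grey) cortex, with the replicate number above each point and the mean and SD (n = 5) beside the points. The BMAL1 aKO and Cre- libraries do not overlap for Pla2g7 and Htra1 and overlap for the other 7.

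None of the 6 signalling genes passed with the deposited scaling. Tril (ENSMUSG00000043496, chr6:53815468-53820830), an accessory protein of Toll-like receptors, was at 54.1, 65.4, 48.9, 58.1 and 51.9 CPM in the BMAL1 aKO mice 1 to 5, against 40.4, 43.4, 66.3, 54.3 and 41.8 CPM in the Cre- mice 1 to 5. Cre- replicate 3 was the highest of all 10 libraries, and Cre- replicates 1, 2 and 5 were below every BMAL1 aKO library. The fit gave a log2 ratio of 0.38 ± 0.09 (SE, limma adjusted p = 0.148), a plain difference of 0.19 and an exact permutation p = 0.254. Dio2, the deiodinase that makes active thyroid hormone, was at 112, 118, 115, 142 and 104 CPM in the BMAL1 aKO mice 1 to 5 and 103, 97.9, 91.9, 89.1 and 117 CPM in the Cre- mice 1 to 5, with a log2 ratio of 0.19 (limma adjusted p = 0.283) and an exact permutation p = 0.0476. BMAL1 aKO replicate 4 was the highest for Dio2 and the groups overlapped through Cre- replicate 5. Fgfr3, the astrocyte receptor for fibroblast growth factors, was at 70.5 to 93.1 CPM in BMAL1 aKO and 55.3 to 129 CPM in Cre- cortex, with a log2 ratio of -0.03 (limma adjusted p = 0.887). Gli3, a transcription factor of the Hedgehog pathway, Appl2, an endosomal adaptor, and F3, tissue factor, which starts blood clotting, had log2 ratios of 0.15, 0.12 and 0.07 (limma adjusted p = 0.448, 0.378 and 0.706). Of 17 measured genes of FGF and Hedgehog signalling outside the list none passed in limma (2 higher and 1 lower at an unadjusted p below 0.05), and of 7 of thyroid hormone import and response none did (1 higher and 1 lower). Of all genes 6.82% were higher and 10.0% lower at that unadjusted p.

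Id3 and Id4 encode inhibitors of basic helix-loop-helix factors that respond to bone morphogenetic proteins. Id3 was at 7.78, 12.4, 9.55, 11.0 and 10.3 CPM in the BMAL1 aKO mice 1 to 5 and 8.84, 11.1, 19.8, 10.1 and 8.21 CPM in the Cre- mice 1 to 5. Cre- replicate 3 alone was above the other 9 libraries, and the log2 ratio was 0.16 (limma adjusted p = 0.488) with weights and -0.12 without. Id4 was at 48.3 to 60.2 CPM in BMAL1 aKO and 37.9 to 55.2 CPM in Cre- cortex, with a log2 ratio of 0.06 (limma adjusted p = 0.756) and a plain difference of 0.23 (exact permutation test, p = 0.0952). Of 18 measured genes of BMP signalling outside the list none passed in limma (3 higher and none lower at an unadjusted p below 0.05). The 3 were Bmpr1b, Bmp7 and Nog. Bmpr1b, a receptor of these ligands, had a log2 ratio of 0.31 (limma adjusted p = 0.183). Bmp7, a ligand, had one of 0.46 (limma adjusted p = 0.211), and Nog one of 0.26 (limma adjusted p = 0.281). Over the 18 genes the median log2 ratio was -0.04, with 7 above 0 and 11 below. By the same unadjusted cutoff, 6.82% of all genes were higher and 10.0% lower.

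Of the 4 amino acid and one-carbon enzymes none passed. Aldh1l1 (ENSMUSG00000030088, chr6:90486427-90600203), the formyltetrahydrofolate dehydrogenase that marks astrocytes, was at 38.5, 44.9, 37.4, 32.8 and 36.7 CPM in the BMAL1 aKO mice 1 to 5, against 37.0, 30.3, 55.3, 56.7 and 40.6 CPM in the Cre- mice 1 to 5. Cre- replicates 3 and 4 were the 2 highest of all 10 libraries and Cre- replicate 2 the lowest. The fit gave a log2 ratio of -0.04 ± 0.10 (SE, limma adjusted p = 0.865), and the exact permutation test p = 0.357. Tst, the mitochondrial sulfurtransferase rhodanese, had the lowest log2 ratio of the 36 and was at 5.73, 8.00, 6.37, 6.79 and 5.80 CPM in the BMAL1 aKO mice 1 to 5, against 7.66, 5.86, 21.2, 13.7 and 5.84 CPM in the Cre- mice 1 to 5. Cre- replicates 3 and 4 were again above the rest, and the log2 ratio was -0.22 (limma adjusted p = 0.492) with weights and -0.52 without (exact permutation test, p = 0.246). Prodh, which starts proline breakdown, was at 23.5, 20.4, 17.6, 14.8 and 14.1 CPM in the BMAL1 aKO mice 1 to 5 and 16.7, 16.4, 30.7, 26.5 and 19.8 CPM in the Cre- mice 1 to 5, a log2 ratio of -0.06 ± 0.13 (SE, limma adjusted p = 0.853). Cbs, which makes cystathionine from homocysteine and carries the E-box shown above, was at 17.4 to 24.1 CPM in BMAL1 aKO and 11.9 to 27.4 CPM in Cre- cortex, with a log2 ratio of 0.29 (limma adjusted p = 0.241).

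None of the 4 lipid and glycogen genes passed. Acsbg1, a synthetase that activates long-chain fatty acids, and Plpp3, a phosphatase that degrades lysophosphatidic acid, had log2 ratios of 0.14 (limma adjusted p = 0.386) and 0.08 (limma adjusted p = 0.717). Ppp1r3c, which brings a phosphatase to glycogen and also carries an E-box, was at 31.4, 44.4, 36.5, 36.8 and 29.9 CPM in the BMAL1 aKO mice 1 to 5 and 36.5, 35.8, 38.2, 44.1 and 39.6 CPM in the Cre- mice 1 to 5, a log2 ratio of -0.07 ± 0.09 (SE, limma adjusted p = 0.681). Phkg1, the catalytic subunit of phosphorylase kinase, had one of -0.05 (limma adjusted p = 0.847). The ratio of Ppp1r3c stayed below 0 in all 26 other fits and that of Phkg1 did not. Of 14 measured genes of glycogen metabolism outside the list none passed in limma, and their median log2 ratio was 0.02. None was at an unadjusted p below 0.05, against 6.82% of all genes higher and 10.0% lower.

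None of the 4 transporter and channel genes passed with the deposited scaling. Ttyh1 (ENSMUSG00000030428, chr7:4119408-4136708), a membrane protein of the tweety family, was at 506, 558, 486, 528 and 531 CPM in the BMAL1 aKO mice 1 to 5, against 419.6, 445, 516, 467 and 461 CPM in the Cre- mice 1 to 5. Cre- replicate 3 alone reached into the BMAL1 aKO range. The fit gave a log2 ratio of 0.26 ± 0.06 (SE, limma adjusted p = 0.138), and the exact permutation test p = 0.0238. Slc25a18, a mitochondrial glutamate carrier, was at 24.5 to 43.8 CPM in BMAL1 aKO and 18.3 to 39.7 CPM in Cre- cortex, with a log2 ratio of 0.33 (limma adjusted p = 0.251). Sfxn5, a mitochondrial sideroflexin, and Slc39a12, a zinc importer, had log2 ratios of 0.11 and -0.04 (limma adjusted p = 0.398 and 0.860).

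Of the remaining membrane and cytoskeletal genes, Luzp2 (ENSMUSG00000063297, chr7:54835498-55268885), a leucine zipper protein, came nearest to separating the groups and was at 116, 124, 97.5, 117 and 88.7 CPM in the BMAL1 aKO mice 1 to 5, against 83.3, 77.6, 74.4, 80.6 and 89.1 CPM in the Cre- mice 1 to 5. Only BMAL1 aKO replicate 5 reached into the Cre- range, at the level of Cre- replicate 5. The fit gave a log2 ratio of 0.33 ± 0.08 (SE, limma adjusted p = 0.149), and the exact permutation test p = 0.0159. Ndrg2, a cytoplasmic protein used as an astrocyte marker, was at 586 to 666 CPM in BMAL1 aKO and 562 to 645 CPM in Cre- cortex, with a log2 ratio of 0.09 (limma adjusted p = 0.470). Gpm6b, a proteolipid glycoprotein also made by oligodendrocytes and neurons, had one of 0.12 (limma adjusted p = 0.375). Mmd2, a membrane receptor family protein, and Ezr, ezrin, which ties the membrane of fine astrocyte processes to actin, had log2 ratios of 0.11 and 0.04 (limma adjusted p = 0.574 and 0.858). The libraries do not mark strand, and 16 of the 36 genes overlap a gene on the opposite strand, among them Pla2g7, Htra1, Tril, Ttyh1, Luzp2, Mt2, Dio2 and Aldh1l1, so their reads are uncertain to that extent.

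The genes moved together only in part within a group. Among the 5 Cre- libraries, replicate 3 was the highest for 20 of the 36 genes and the lowest for 7, and it was the highest of all 10 libraries for 14. Against the median of the other 4 Cre- libraries it was 3.13 times as high for Tst, 2.82 times for Bcan, 2.38 times for Mfge8 and 2.10 times for Id3, and 0.783 times for Id4, 0.817 times for Pla2g7 and 0.840 times for Gpm6b. The same library had the lowest mitochondrial-encoded sum and the highest striatal sum. It also had the highest sums of oligodendrocyte precursor genes (323 CPM) and microglial genes (510 CPM) of all 10 libraries. Its oligodendrocyte sum (4624 CPM) was within the range of the other libraries. The part of these differences in its levels was not tested. Among the BMAL1 aKO libraries, replicate 2 was the highest for 25 of the 36 genes and the lowest for 0. It also had the highest median of all genes in that group, at 0.02. Of all 10 libraries, Cre- replicate 3 had the highest median of all genes, at 0.11 in log2 relative to the Cre- mean. Cre- replicate 2 had the lowest, at -0.13. The counts of highest and lowest libraries were not made for all genes. Whether they are particular to the 36 genes was therefore not tested. Cre- replicate 2 was the lowest Cre- library for 18 of the 36 genes. Without Cre- replicate 3, none of the 36 genes passed and the median log2 ratio over them was 0.10, and without Cre- replicates 3 and 4 (chosen after seeing the data) none passed, against 0.286% of all genes higher and 0.0159% lower, and the median was 0.08, or 0.16 without weights.

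**Figure D3:**
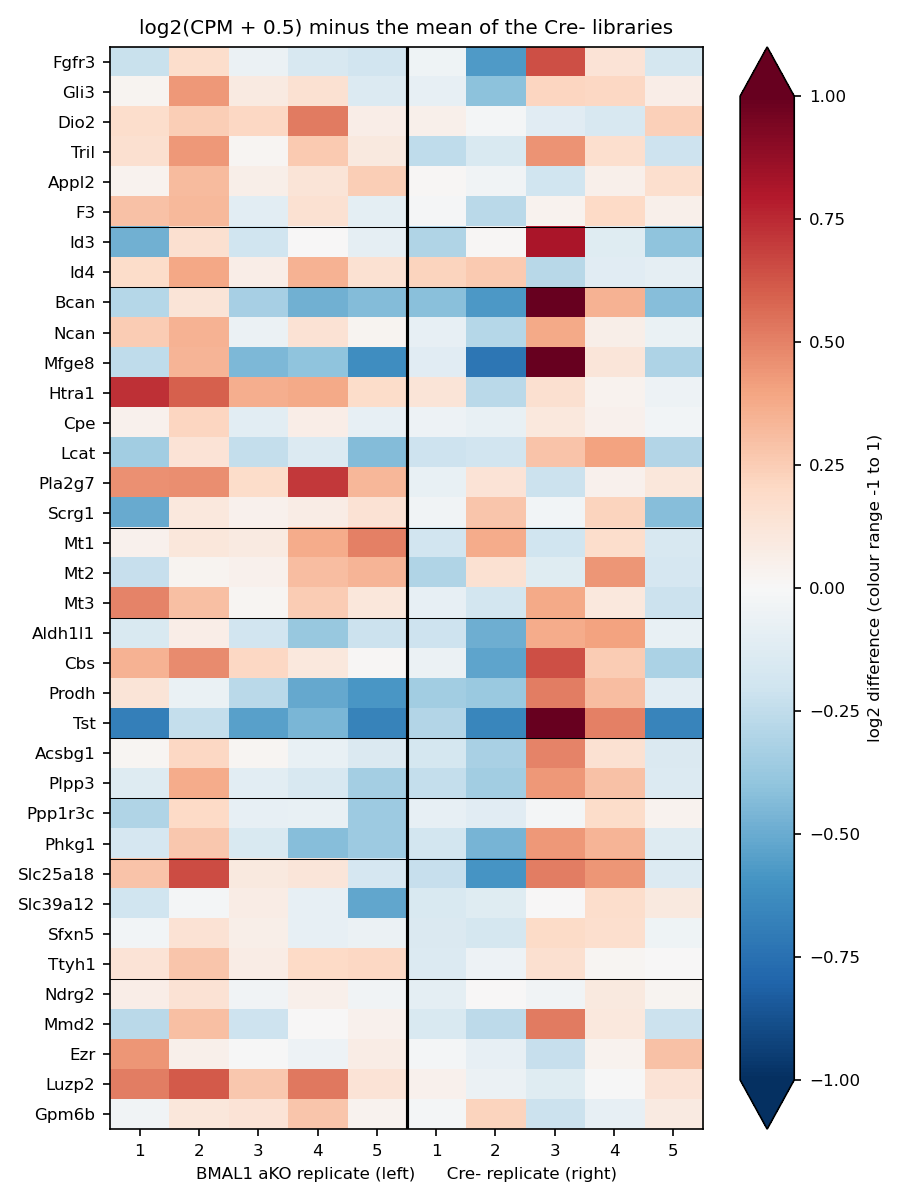
Log2(CPM + 0.5) of each of the 36 genes (rows, by role) in each library (columns, BMAL1 aKO left and Cre- right), minus the mean of the 5 Cre- libraries, with colours limited to -1 to 1. Cre- replicate 3 holds the highest value of all 10 libraries for 14 genes, among them Bcan, Mfge8, Tst and Id3. For Pla2g7 and Htra1 every BMAL1 aKO library is above every Cre- library.

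Taking the median over the 36 genes in each library, as log2(CPM + 0.5) minus the Cre- mean, BMAL1 aKO replicates 1 to 5 were at 0.03, 0.23, 0.02, 0.07 and -0.05, and Cre- replicates 1 to 5 at -0.11, -0.18, 0.21, 0.16 and -0.10. The groups overlapped, with Cre- replicates 3 and 4 above 4 of the 5 BMAL1 aKO libraries on the unscaled CPM. The median of all genes also differed between libraries, and relative to it (a centring chosen after seeing the data) BMAL1 aKO replicates 1 to 5 were at 0.13, 0.22, 0.04, 0.14 and 0.03, and Cre- replicates 1 to 5 at -0.10, -0.05, 0.09, 0.09 and -0.06. On that scale Cre- replicates 3 and 4 were above only BMAL1 aKO replicates 3 and 5. The summed level of the 36 genes was 5785 to 6767 CPM in BMAL1 aKO and 5438 to 6394 CPM in Cre- cortex.

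Of 30 other astrocyte genes 4 rose and none fell, against 0.286% of all genes higher and 0.0477% lower. The list was mixed and held uptake, channel, receptor and adhesion genes as well as enzymes, secreted proteins and a transcription factor. At an unadjusted p below 0.05 in limma, 8 were higher and 3 lower, against 6.82% and 10.0% of all genes. The median log2 ratio of the list was 0.14. The 4 were Gja1, the connexin of astrocyte gap junctions (0.44, limma adjusted p = 0.0273), Ednrb, an endothelin receptor (0.57, limma adjusted p = 0.0210), Ntsr2, a neurotensin receptor (0.47, limma adjusted p = 0.0210), and Cldn10, a claudin (0.65, limma adjusted p = 0.0590). None of the 4 passed without Cre- replicate 1 or 5 or without weights, and Gja1 and Cldn10 did not without Cre- replicate 3 or 4, Gja1, Ednrb and Cldn10 without BMAL1 aKO replicate 4, or Cldn10 without BMAL1 aKO replicate 5. In voomWithQualityWeights Gja1, Ednrb and Ntsr2 passed and Cldn10 did not (adjusted p = 0.171), and none of the 4 passed with the replicate block. Etnppl, a phosphoethanolamine lyase, had the lowest log2 ratio of the list, -1.19 (limma adjusted p = 0.123). The glutamate transporter genes Slc1a2 and Slc1a3, singled out after their values were seen, had log2 ratios of 0.16 (limma adjusted p = 0.298) and 0.00 (limma adjusted p = 0.992). Of 14 listed genes of reactive astrocytes only 8 were measured. Of these 2 rose, against 0.286% of all genes, and 0 fell (6 higher and 0 lower at an unadjusted p below 0.05 in limma, against 6.82% and 10.0% of all genes). The 2 were Fabp7 and S100a6, a calcium-binding protein (0.76, limma adjusted p = 0.0581), and the list median was 0.43. S100a6 did not pass without BMAL1 aKO replicate 1 or 4 or Cre- replicate 1, 3, 4 or 5, without weights (limma adjusted p = 0.803) or with the replicate block (limma adjusted p = 0.134). Fabp7, the brain fatty acid-binding protein, was at 90.8 to 237 CPM in BMAL1 aKO and 9.94 to 19.9 CPM in Cre- cortex, a log2 ratio of 3.53 ± 0.21 (SE, limma adjusted p = 3.06e-06), while the log2 ratios of the 36 identity genes reached at most 0.44. Gfap, the filament protein of reactive astrocytes, was at 134 to 279 CPM in BMAL1 aKO and 109 to 138 CPM in Cre- cortex, with a log2 ratio of 0.66 (limma adjusted p = 0.123).

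Markers of other cells were measured beside these genes. None of 14 neuronal, 13 oligodendrocyte, 7 oligodendrocyte precursor, 14 microglial, 11 endothelial and mural, 9 choroid plexus and meningeal or 9 striatal genes passed in limma (0, 1, 1, 4, 0, 0 and 0 were higher and 1, 0, 0, 0, 0, 0 and 0 lower at an unadjusted p below 0.05). The log2 ratio was above 0 for 13 of 13 oligodendrocyte, 12 of 14 microglial and 5 of 14 neuronal genes, with medians of 0.16, 0.12 and -0.05 with weights and 0.04, 0.00 and 0.01 without. Summed levels overlapped between the groups. They were 4208 to 6034 CPM in BMAL1 aKO and 3721 to 6557 CPM in Cre- cortex for oligodendrocyte genes, 353 to 456 CPM and 353 to 510 CPM for microglial genes, and 11643 to 13069 CPM and 11822 to 13207 CPM for neuronal genes, in the same order of groups. Nearly all genes of the deposited table passed the filter on low values, so a marker at or near 0 would be missing from it. Of the markers listed, 9 of 12 choroid plexus and meningeal and 11 of 12 endothelial and mural genes were measured. The part of these other cells in the levels of genes such as Gpm6b, Cpe and Bcan was not tested. Of 10 measured genes of the lectican matrix outside the list none passed in limma (1 higher and 2 lower at an unadjusted p below 0.05). The 1 higher gene was Ptprz1, a receptor phosphatase whose secreted form joins this matrix. It was at 305 to 457 CPM in BMAL1 aKO and 261 to 301 CPM in Cre- cortex. Its log2 ratio was 0.34 (limma adjusted p = 0.162). The 2 lower genes were Has3 (-0.45, limma adjusted p = 0.182) and Tnr (-0.26, limma adjusted p = 0.275). Over the 10 genes the median log2 ratio was -0.04, with 4 above 0 and 6 below. By the same unadjusted cutoff, 6.82% of all genes were higher and 10.0% lower.

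**Figure D4:**
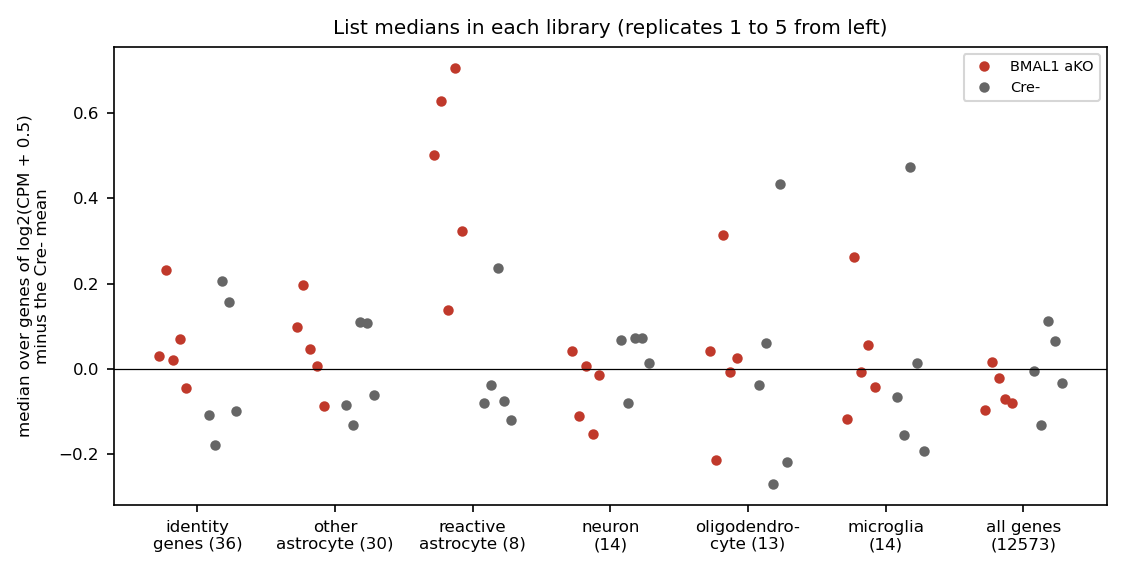
Median over the genes of each list of log2(CPM + 0.5) minus the Cre- mean, in each library of BMAL1 aKO (red) and Cre- (grey) cortex, with replicates 1 to 5 from left and the number of genes in parentheses. The 36 identity genes lie between -0.05 and 0.23 in BMAL1 aKO and between -0.18 and 0.21 in Cre- libraries, and the 8 reactive genes between 0.14 and 0.71 and between -0.12 and 0.24.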

How the data were processed

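RNA of cortical tissue from 5 BMAL1 aKO and 5 Cre- mice was sequenced. Per the study's methods and the submitters' processing notes, the authors used STAR 2.5.1a for alignment (GRCm38) and featureCounts 1.4.6-p5 for counting, and tested with TMM scaling and voomWithQualityWeights in limma. The deposited values are CPM per gene without TMM scaling. Total reads were estimated from the smallest step between CPM values. With it 100% of values were whole reads within 0.01, but in some libraries the lowest value is several reads. The totals, the TMM factors and the reads used by voomWithQualityWeights are therefore inferred.

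Genes over 1 CPM in 4 or more libraries entered the fit as log2(CPM + 0.5) with limma 3.58.1 in R 4.3.3 (arrayWeights, trended variance, Benjamini-Hochberg, threshold 0.1). Single genes were also tested by two-sided exact permutation over 252 splits. Positions and exon lengths are from GENCODE M21 (GRCm38), and promoters from RefSeq (GRCm38.p6). Python 3.11.15, NumPy 2.4.6, pandas 2.3.3 and matplotlib 3.10.9 were used.

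The members and lists were chosen with earlier results of these data known. All 36 members are named, those called, not overlapping, extreme or metallothioneins with full statistics, and of other lists those called and at most 4 more. Alternatives were the pseudocount, filter, weights, scaling, voomWithQualityWeights, a replicate block, sex, each library left out and a threshold of 0.05, with 6 fits and 1 centring added after seeing the data. The fit was tested on simulated data.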

Additional observations from a re-analysis of the deposited data

Results flagged for a closer look

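Among 72 sets of 5 values (36 genes in 2 groups), 5 held a library far from the other 4 by Dixon's test at the 95% level (a gap above 0.710 of the range), and chance gives about 1 in 20. Bcan was at 157 CPM and Plpp3 at 251.7 CPM in BMAL1 aKO replicate 2, both above the other BMAL1 aKO libraries. In BMAL1 aKO replicate 1, Scrg1 was low at 6.78 CPM and Ezr high at 123 CPM. Id3 was at 19.8 CPM in Cre- replicate 3, above the other Cre- libraries.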

How the results depend on the processing

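The median log2 ratio of the 36 genes stayed above 0 in all 26 other fits, from 0.02 with the replicate block to 0.16 without weights and Cre- replicates 3 and 4, and no member fell in any of them. Of the identity genes 1 passed as reported, 4 after TMM scaling, 3 after median-of-ratios scaling and 2 without BMAL1 aKO replicate 3 and Cre- replicate 3, and 0 without weights, with voomWithQualityWeights, with a sex covariate, without Cre- replicates 3 and 4, or at a threshold of 0.05. With the replicate block 0 identity genes, 0 other astrocyte genes and 6 higher and 1 lower of all genes passed. The numbers did not pair the libraries, since the correlation of deviations within a number was between -0.63 and 0.36, and 1 library matched its own number best. Leaving out 1 library gave 0 to 6 identity genes, 1 to 339 of all genes higher and 0 to 505 lower, and 0 to 4 other astrocyte genes higher and 0 to 2 lower, and the weights did not converge without Cre- replicate 1 or 5.

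All genes higher and lower were 36 and 6 as reported, 60 and 8 after TMM scaling, 55 and 7 after median-of-ratios scaling, 27 and 2 with voomWithQualityWeights, 21 and 1 with a sex covariate, 19 and 1 at a threshold of 0.05, and 4 and 0 without weights. Without BMAL1 aKO replicate 3 and Cre- replicate 3 they were 51 and 39, or 5 and 1 without weights, and without Cre- replicates 3 and 4 they were 36 and 2, or 6 higher and 0 lower without weights. Without weights 4 higher and 0 lower passed with TMM scaling and 2 higher and 0 lower with the replicate block. Other astrocyte genes higher were 4 as reported, 3 with voomWithQualityWeights, 2 without Cre- replicates 3 and 4, and 0 in every fit without weights, and 2 were lower without BMAL1 aKO replicate 3 and Cre- replicate 3. Of identity genes, 0 passed in the fits without weights. The cause of these shifts was not tested. The planned quasi-likelihood test of counts was not run, because the reads were inferred from CPM.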
